A study of Mus musculus with 12 samples.

Results

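The genes described here encode the nuclear parts of oxidative phosphorylation, together with factors that share their names. Members were all rows of the normalized count table whose symbol begins with Ndufa, Ndufb, Ndufc, Ndufs, Ndufv, Sdha to Sdhd, Uqcr, Cox4 to Cox8 or Atp5, a rule that used no measured value. It took 94 of the 23479 rows, 45 for complex I, 6 for complex II, 8 for complex III, 18 for complex IV and 17 for complex V. By textbook role, 74 members were subunits of broad expression, 12 were assembly or associated factors and the others were tissue-restricted isoforms. The rule goes by name, so Ndufa4, now known as a complex IV subunit, stands under complex I. Atp5sl, now named Dmac2, a factor known for assembly of complex I, likewise stands under complex V. Subunits encoded by mitochondrial DNA were not analysed here.

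Complexes I to IV pass electrons from NADH and succinate to oxygen in the inner mitochondrial membrane, and complexes I, III and IV pump protons as they do so. Complex V, the ATP synthase, lets the protons back through a membrane ring and makes ATP. Neutrophils are known for few mitochondria and a reliance on glycolysis, while monocytes use both routes.

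Total RNA was sequenced from monocytic (M-MDSC) and polymorphonuclear (PMN-MDSC) cells, the kinds of myeloid-derived suppressor cell sorted here, which build up with tumours and restrain T cells. All mice were C57BL/6 and carried B16 melanomas that had reached more than 25 mm2. Lymphodepleted (LD) mice had then received cyclophosphamide and fludarabine, both lymphocyte-depleting drugs, and control (Ctrl) mice were untreated. Spleens of LD mice were taken 7 days after treatment, and no day is recorded here for the untreated Ctrl mice. Cells were sorted by flow cytometry. The 4 groups were M-MDSC LD, M-MDSC Ctrl, PMN-MDSC LD and PMN-MDSC Ctrl, with 3 libraries each. The design text gives 3 mice per treatment, but the labels do not tie a library to a mouse, so p-values measure the spread between these libraries, which may be technical.

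Libraries held 8906045 to 16242926 reads assigned to genes, and PMN-MDSC Ctrl replicate 3 was the shallowest. The labels of the populations were checked against 8 monocyte and 8 neutrophil markers, and all 16 were detected in every group. Monocyte markers summed to 65588 to 113436 normalized counts in M-MDSC libraries and 8337 to 12475 in PMN-MDSC libraries, and neutrophil markers to 6887 to 54398 and 413158 to 743563. Haemoglobin genes were at 0 in all groups, and the melanocyte gene Mlana was as well. Other markers of these kinds had a few reads. The 6 erythroid markers summed to at most 18.9 normalized counts and the 5 melanoma markers to at most 21, both in PMN-MDSC LD. The LD libraries numbered 1 had the highest Mki67 of their groups, a gene of cycling cells, which reached 8133 for M-MDSC and 6242 for PMN-MDSC. Levels are normalized counts, reads divided by 1 size factor per library. Changes are log2 differences of normalized count + 1 with their standard error (SE) from limma, and adjusted p-values run over the 11122 genes with a mean of at least 10. Of the 94 members, 84 reached that level, and the other 10 were Ndufs5, Atp5s and 8 tissue-restricted isoforms.

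Each summed level over complexes I, III, IV and V was higher in M-MDSC than in PMN-MDSC, under both treatments, while for complex II the direction rested on the scaling. All members together summed to 35579 ± 679 normalized counts in M-MDSC LD, 36287 ± 2100 in M-MDSC Ctrl, 27686 ± 126 in PMN-MDSC LD and 22611 ± 2810 in PMN-MDSC Ctrl (SD, n = 3 each). Complex I summed to 11089 ± 380 in M-MDSC LD against 8177 ± 249 in PMN-MDSC LD, and to 11303 ± 555 in M-MDSC Ctrl against 6795 ± 783 in PMN-MDSC Ctrl. Complex V showed the same order, with 12191 ± 217 in M-MDSC LD against 8684 ± 284 in PMN-MDSC LD, and 12671 ± 826 in M-MDSC Ctrl against 6907 ± 845 in PMN-MDSC Ctrl. Complex II, which also works in the citric acid cycle, summed to 3180 ± 279 in M-MDSC LD against 3602 ± 288 in PMN-MDSC LD and to 3203 ± 172 in M-MDSC Ctrl against 3365 ± 263 in PMN-MDSC Ctrl. These ranges overlapped between the populations under both treatments, but as a share of all reads complex II was higher in M-MDSC, at 0.0357 ± 0.00205% in M-MDSC LD against 0.0243 ± 0.000227% in PMN-MDSC LD and 0.0349 ± 0.00157% in M-MDSC Ctrl against 0.0237 ± 0.00183% in PMN-MDSC Ctrl. The plot of summed levels shows that the 3 PMN-MDSC LD libraries lay above all 3 PMN-MDSC Ctrl libraries in complexes I, III, IV and V. PMN-MDSC Ctrl replicate 3 was the lowest library in every complex but II, and in complex II only M-MDSC libraries were lower. In bulk libraries, fewer cells with a transcript and less of it per cell cannot be told apart.

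**Figure D1:**
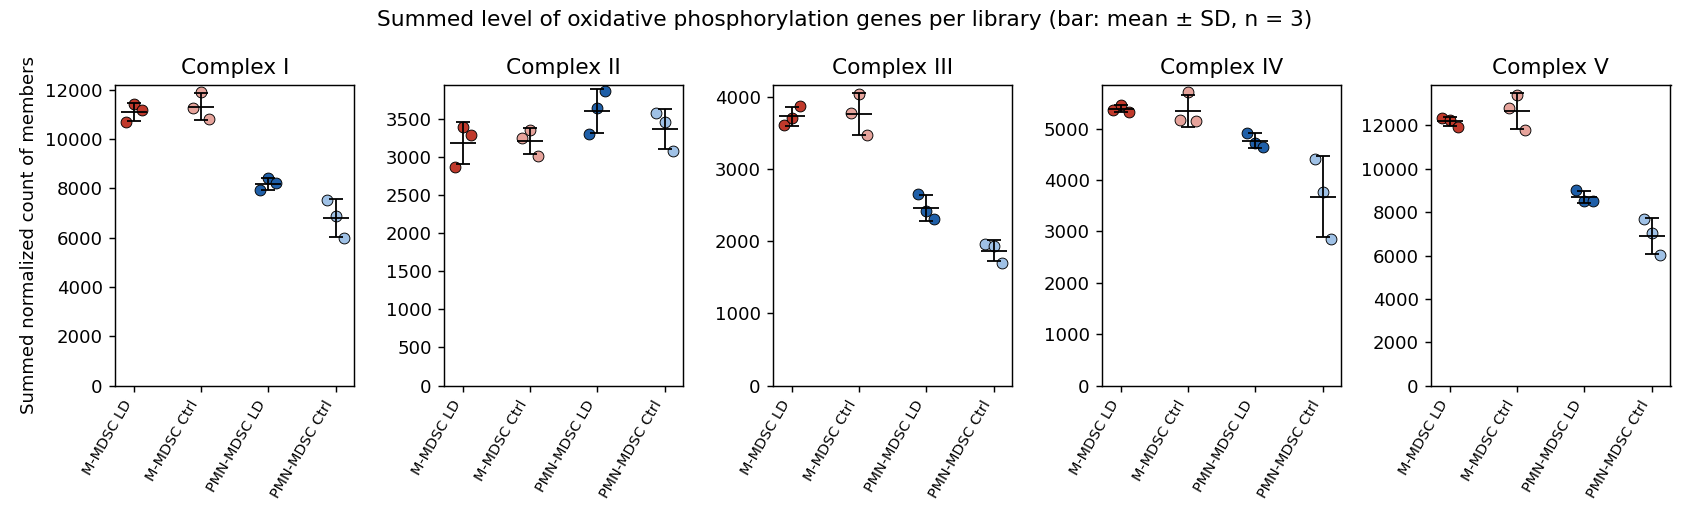
Summed normalized counts of the members of each complex in every library (points), with the mean and SD of 3 libraries (bars), for M-MDSC LD, M-MDSC Ctrl, PMN-MDSC LD and PMN-MDSC Ctrl. On this scale the M-MDSC groups stand above the PMN-MDSC groups in complexes I, III, IV and V and overlap them in complex II, which was higher in M-MDSC as a share of all reads (0.0357% against 0.0243% in LD, 0.0349% against 0.0237% in Ctrl), and in complex IV the PMN-MDSC Ctrl libraries run between 2854 and 4414.

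The populations were compared first. In LD mice, 45 of the 84 tested members were higher in M-MDSC and 6 were lower (limma, adjusted p under 0.05), where 38.8% of all tested genes were higher and 36.1% lower. In Ctrl mice, 59 members were higher in M-MDSC and 4 were lower, where 38.8% of all tested genes were higher and 36.8% lower. The median difference over members was 0.59 in LD and 0.97 in Ctrl (log2), beside 0.10 and 0.06 over all genes tested. Of the members called in Ctrl, 55 of the higher and all 4 of the lower were among the 80 members with a mean of at least 10 in every group. In LD, 42 of the higher and all 6 of the lower were among those 80. The other tested members, Ndufaf2, Ndufaf4, Ndufaf5 and Ndufaf6, passed the minimum only through M-MDSC, and all stand under complex I.

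By complex, members higher in M-MDSC in LD mice were 24 of 43 in complex I and 2 of 6 in complex II. In complexes III, IV and V they were 6 of 8, 3 of 11 and 10 of 16. As shares these were 55.8%, 33.3%, 75%, 27.3% and 62.5% for I to V, beside 38.8% of all tested genes. Lower in M-MDSC were 2, 2, 0, 1 and 1, beside 36.1% of all. In Ctrl mice 32, 3, 6, 7 and 11 were higher in the same order (74.4%, 50%, 75%, 63.6% and 68.8%), beside 38.8% of all. Lower there were 1, 1, 0, 1 and 1, beside 36.8% of all. Complex medians in Ctrl were 1.23 for I, 0.18 for II, 0.73 for III, 0.53 for IV and 1.02 for V. The 7 core subunits of complex I, among them those that bind the flavin, were all tested, and 5 were higher in M-MDSC under each treatment.

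**Figure D2:**
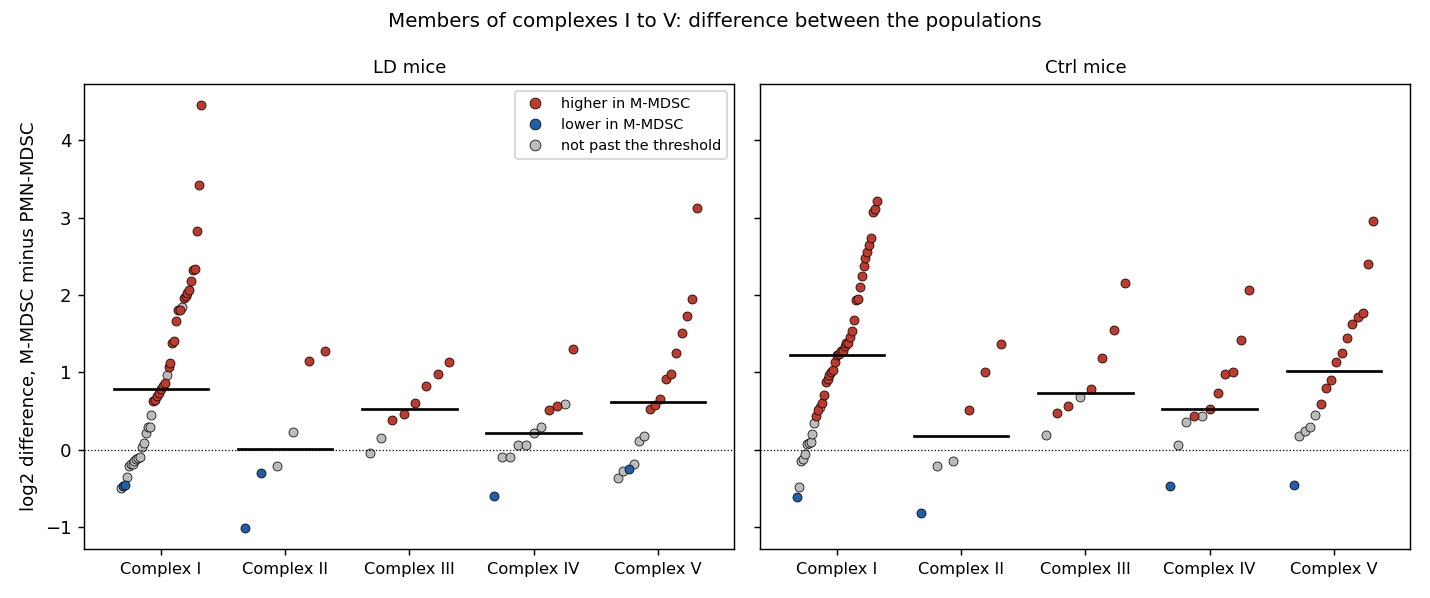
The log2 difference M-MDSC minus PMN-MDSC of each tested member, by complex, in LD mice (left) and Ctrl mice (right). Red points were higher and blue points lower in M-MDSC at an adjusted p under 0.05, grey points did not pass, and the black line is the median of the complex. Most points lie above 0 in complexes I, III, IV and V, and the median of complex II is 0.01 in LD and 0.18 in Ctrl.

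Among complex I members, Ndufa9 had the smallest adjusted p. It is an accessory subunit of the matrix arm, close to where ubiquinone binds. Ndufa9 had 283, 301 and 339 normalized counts in M-MDSC LD, against 82.5, 79.4 and 68.7 in PMN-MDSC LD. In Ctrl mice it had 294, 299 and 302 in M-MDSC against 61.2, 58.9 and 51.1 in PMN-MDSC. Every M-MDSC library lay above every PMN-MDSC library, and the differences were 1.99 ± 0.18 in LD (limma adjusted p = 1.39e-07) and 2.37 ± 0.18 in Ctrl (limma adjusted p = 1.98e-08). Ndufa11, an accessory subunit of the membrane arm, averaged 197 ± 39.3 in M-MDSC Ctrl against 34.1 ± 3.33 in PMN-MDSC Ctrl (SD, n = 3 each), a difference of 2.48 ± 0.26 (SE) with no overlap. Ndufv1, the core subunit that binds NADH and flavin, averaged 410 ± 5.73 in M-MDSC LD against 158 ± 21.3 in PMN-MDSC LD, a difference of 1.38 ± 0.14 with no overlap.

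Complex III and complex IV each held a small subunit with a large difference. Uqcrb, the ubiquinone-binding protein of complex III, averaged 435 ± 12.9 in M-MDSC Ctrl against 97.7 ± 15.7 in PMN-MDSC Ctrl (SD, n = 3 each), 4.45-fold higher on the fitted scale (limma adjusted p = 1.97e-08). Cox7b, a small nuclear subunit of cytochrome c oxidase, had 425, 438 and 381 in M-MDSC LD against 189, 122 and 203 in PMN-MDSC LD. In Ctrl mice Cox7b had 388, 470 and 460 in M-MDSC against 92.8, 89.7 and 132 in PMN-MDSC. The groups did not overlap under either treatment, and the differences were 1.30 ± 0.21 in LD and 2.07 ± 0.21 in Ctrl. Cox6c, another small subunit of that enzyme, differed by 0.51 ± 0.16 in LD and 0.98 ± 0.16 in Ctrl, without overlap. Uqcrc1, core protein of complex III, differed by 1.18 ± 0.11 in Ctrl and Uqcrfs1, the Rieske iron-sulphur subunit, by 1.14 ± 0.19 in LD, both without overlap.

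Complex V holds a catalytic head, a peripheral stalk and a membrane part. Atp5a1, the alpha subunit of the head, averaged 3519 ± 125 in M-MDSC LD against 1785 ± 130 in PMN-MDSC LD, and 3710 ± 307 in M-MDSC Ctrl against 1359 ± 132 in PMN-MDSC Ctrl (SD, n = 3 each). Its differences were 0.98 ± 0.10 in LD and 1.45 ± 0.10 in Ctrl, with no overlap. In the stalk that holds the head still, Atp5o, the oligomycin sensitivity protein, differed by 1.73 ± 0.21 in LD and Atp5h (subunit d) by 1.14 ± 0.11 in Ctrl, both without overlap. Atp5f1, subunit b of the same stalk, was lower in M-MDSC in LD, a direction that turned with total-count scaling (0.48), with 874 ± 87.4 in M-MDSC and 1037 ± 47.6 in PMN-MDSC, a difference of -0.25 ± 0.11 (limma adjusted p = 0.0483). Its groups did not overlap, and it did not pass with either count test. Atp5o, Atp5h and Atp5f1 share 50.3%, 50.5% and 38.7% of their transcript 50-mers with other genes, so reads of copies could be lost or split.

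The c ring is the rotor that protons turn, and its gene Atp5g1 had the largest difference of the tested complex V members under both treatments. Atp5g1, Atp5g2 and Atp5g3 encode the same mature protein with different import sequences. Atp5g1 had 104, 105 and 127 normalized counts in M-MDSC LD against 29.8, 17.7 and 2.80 in PMN-MDSC LD, and 88.8, 117 and 87.0 in M-MDSC Ctrl against 21.4, 14.1 and 4.79 in PMN-MDSC Ctrl. Atp5g3 had 327, 324 and 303 in M-MDSC LD against 176, 131 and 102 in PMN-MDSC LD, and 375, 325 and 306 in M-MDSC Ctrl against 113, 110 and 83.0 in PMN-MDSC Ctrl. All 3 genes were higher in M-MDSC without overlap, by 3.12 ± 0.65, 1.95 ± 0.38 and 1.25 ± 0.21 in LD for Atp5g1, Atp5g2 and Atp5g3 and by 2.96 ± 0.65, 2.40 ± 0.38 and 1.72 ± 0.21 in Ctrl. Atp5g3 gave the main part of c ring reads, 60.8 ± 1.04% in M-MDSC LD, 62.5 ± 2.48% in M-MDSC Ctrl, 77.1 ± 3.43% in PMN-MDSC LD and 76.5 ± 5.56% in PMN-MDSC Ctrl. Per transcript length the Atp5g3 share was 58.6%, 60.6%, 76.1% and 75.4% in the same groups. Atp5g1 and Atp5g2 share 66.0% and 87.4% of their transcript 50-mers with other genes, so reads of copies could be lost or split, while Atp5g3 shares none.

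A few members ran against the rest. Sdhaf2, which attaches the flavin to succinate dehydrogenase, had 244, 242 and 220 normalized counts in M-MDSC LD against 454, 503 and 466 in PMN-MDSC LD, and 269, 258 and 260 in M-MDSC Ctrl against 445, 436 and 511 in PMN-MDSC Ctrl. Every PMN-MDSC library was higher, and the differences were -1.01 ± 0.12 in LD and -0.82 ± 0.12 in Ctrl (limma adjusted p = 2.75e-06 and 2.46e-05). Sdhaf1, the other complex II assembly factor, was higher in M-MDSC by 1.28 ± 0.45 in LD without overlap, and shares 69% of its 50-mers with another gene. Of the complex II subunits, Sdhc, a membrane anchor, was higher in M-MDSC by 1.15 ± 0.20 in LD and 1.99-fold in Ctrl, and Sdhb, the iron-sulphur subunit, by 0.51 ± 0.14 in Ctrl, all without overlap. Sdha, the flavoprotein, was lower in M-MDSC by -0.30 ± 0.12 in LD with overlapping groups.

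Cox8a and Ndufb9 were likewise lower in M-MDSC. Cox8a, the broadly expressed form of a complex IV subunit, averaged 532 ± 43.0 in M-MDSC LD against 808 ± 77.0 in PMN-MDSC LD and 519 ± 65.3 in M-MDSC Ctrl against 727 ± 166 in PMN-MDSC Ctrl (SD, n = 3 each), and its groups overlapped in Ctrl only. Ndufb9, an accessory subunit of the membrane arm of complex I, averaged 387 ± 32.8 in M-MDSC LD against 529 ± 38.6 in PMN-MDSC LD and 323 ± 31.1 in M-MDSC Ctrl against 500 ± 108 in PMN-MDSC Ctrl, without overlap. Ndufb7, another subunit of that arm, passed in LD (-0.47 ± 0.19) and Atp5l, subunit g of complex V, in Ctrl (-0.46 ± 0.16), both without overlap. Atp5l shares 84.8% of its 50-mers with 14 other genes and Ndufb9 23.4% with another gene, so their counts are uncertain. The directions of these lower members rest on the scaling. Size factors gave M-MDSC libraries normalized totals of 8572575 to 9397397 and PMN-MDSC libraries 13715662 to 15808125, and when each library was divided by its total instead, Cox8a (0.13 in LD, 0.16 in Ctrl), Ndufb9 (0.29 in LD, 0.02 in Ctrl), Sdha (0.44), Atp5f1 (0.48), Ndufb7 (0.27) and Atp5l (0.17) turned to higher in M-MDSC, while Sdhaf2 kept its sign (-0.28 in LD, -0.19 in Ctrl) without passing. That scaling moved the median of all genes to 0.84 in LD and 0.71 in Ctrl, and the median of members exceeded it by 0.47 in LD and 0.90 in Ctrl.

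Lymphodepletion was then compared within each population. In PMN-MDSC, 14 of the 84 tested members rose and 2 fell (limma, adjusted p under 0.05), where 7.17% of all tested genes rose and 8.51% fell. The median change was 0.28 over members and -0.05 over all genes tested, and 68 of 84 members were above 0. In 24 members every LD library was above every Ctrl library and in 2 every one was below, where 14.1% and 17.8% of all genes tested did so. All 14 that rose were among the 73 tested subunits of broad expression (19.2%). In complex I they were 4 of 43 (9.3%), near the 7.17% of all tested genes. In complexes III, IV and V they were 2 of 8 (25%), 4 of 11 (36.4%) and 4 of 16 (25%). Of 6 members of complex II 0 passed, and of the 7 core subunits of complex I 0 passed. Of 11 tested assembly and associated factors 0 rose and 2 fell. At 7.17%, sets of 6, 7 or 11 genes could hold 0 that rose, so no contrast is drawn from them. Among the 64 tested members that share under 20% of their 50-mers with other genes, 10 rose and 2 fell.

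**Figure D3:**
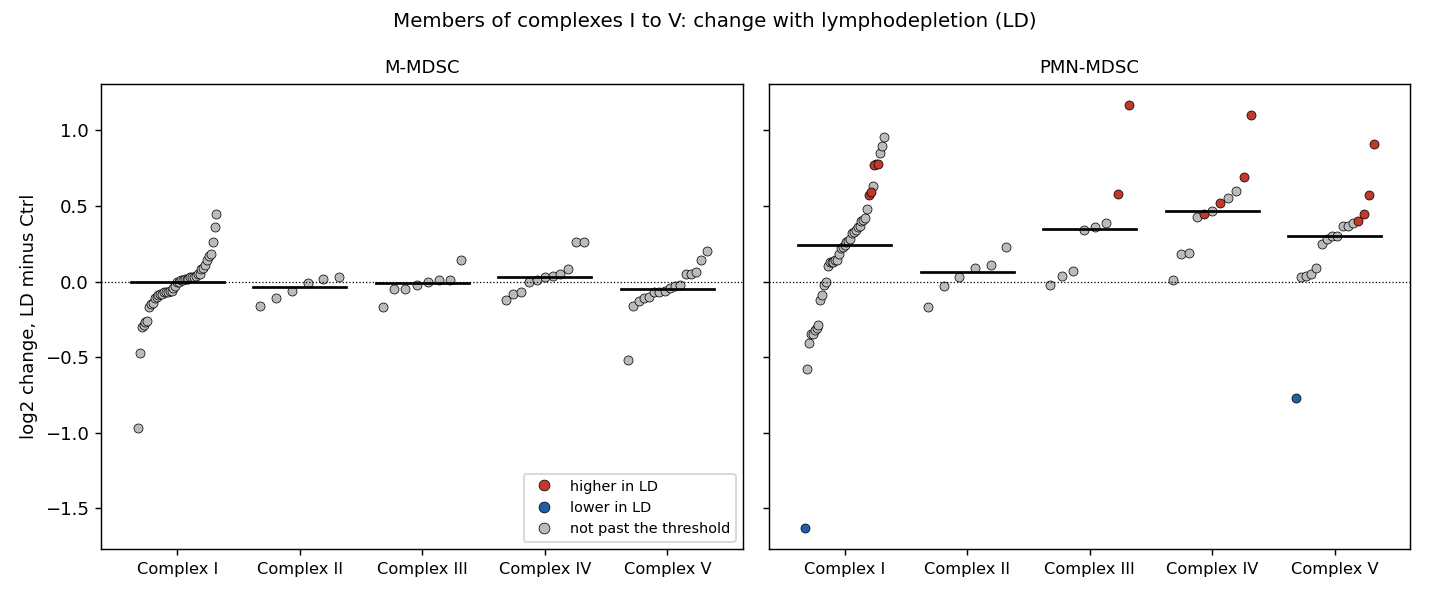
The log2 change LD minus Ctrl of each tested member, by complex, in M-MDSC (left) and PMN-MDSC (right). Red points rose and blue points fell at an adjusted p under 0.05, grey points did not pass, and the black line is the median of the complex. No point of M-MDSC passed, and in PMN-MDSC the medians of complexes I, III, IV and V are 0.24, 0.35, 0.47 and 0.30.

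Uqcrb rose most. The gene lies at chr13:66900576-66905350 (GRCm38). It had 253, 200 and 209 normalized counts in PMN-MDSC LD against 95.9, 114 and 83.0 in PMN-MDSC Ctrl. Every LD library lay above every Ctrl library, and the change was 1.17 ± 0.16 (2.25-fold, limma adjusted p = 5.85e-04). Uqcrb shares 43.4% of its transcript 50-mers with 5 other genes, so its count is uncertain where reads of copies were lost or split. Uqcrc1, at chr9:108936648-108949641, has no such copy. Uqcrc1 had 741, 694 and 691 in PMN-MDSC LD against 487, 498 and 441 in PMN-MDSC Ctrl, without overlap, a change of 0.58 ± 0.11 (limma adjusted p = 0.00469).

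Complex I gave 4 accessory subunits. Ndufs4, at chr13:114287795-114388094, belongs to the matrix arm, and its loss in people and mice is known for complex I deficiency. It had 339, 449 and 398 normalized counts in PMN-MDSC LD against 204, 230 and 252 in PMN-MDSC Ctrl, without overlap. The change was 0.78 ± 0.14 (1.72-fold, limma adjusted p = 0.00313). Ndufv3, at chr17:31520115-31531326, is an accessory subunit of the NADH-binding module. It had 287, 279 and 348 in PMN-MDSC LD against 159, 188 and 185 in PMN-MDSC Ctrl, again without overlap, a change of 0.77 ± 0.17 (limma adjusted p = 0.00694). Ndufb11 and Ndufb7, both in the membrane arm, rose by 0.57 ± 0.16 and 0.59 ± 0.19 without overlap.

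In complex IV the 4 genes that rose were Cox7c, Cox7b, Cox6c and Cox6b1, all small subunits around the mitochondrially encoded core. Cox7c had 86.6, 106 and 89.7 normalized counts in PMN-MDSC LD against 68.3, 38.7 and 30.3 in PMN-MDSC Ctrl, without overlap, a change of 1.10 ± 0.29 (limma adjusted p = 0.0197). Its Ctrl libraries spread more than its LD libraries, and it shares 53.0% of its 50-mers with other genes. Cox7b rose by 0.69 ± 0.21, with the lowest LD library (122) below the highest Ctrl library (132). Cox6c rose by 0.52 ± 0.16 and Cox6b1 by 0.45 ± 0.15, both without overlap, and Cox6c shares 21.1% of its 50-mers with another gene. In complex V, Atp5j (coupling factor 6 of the peripheral stalk, chr16:84827871-84835857) had 807, 741 and 761 in PMN-MDSC LD against 571, 588 and 415 in PMN-MDSC Ctrl, without overlap. The change of Atp5j was 0.57 ± 0.13 (limma adjusted p = 0.00975). Atp5h rose by 0.45 ± 0.11, Atp5a1 by 0.40 ± 0.10 and Atp5k, the membrane subunit e, by 0.91 ± 0.27, all without overlap. Atp5h shares 50.5% of its 50-mers with other genes.

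Both members that fell are assembly factors. Ndufaf4, a complex I assembly factor, had 2.71, 4.41 and 1.40 normalized counts in PMN-MDSC LD, which are 2, 3 and 1 reads, against 13.3, 4.39 and 17.6 in PMN-MDSC Ctrl, which are 13, 5 and 11 reads. The groups overlapped, and the fitted change of -1.63 ± 0.52 (limma adjusted p = 0.0452) rests on those few reads. Atp5sl had 63.6, 98.5 and 58.9 in PMN-MDSC LD against 118, 104 and 153 in PMN-MDSC Ctrl, without overlap, a change of -0.77 ± 0.24 (limma adjusted p = 0.0402). In M-MDSC the Atp5sl values in LD also lay below those in Ctrl (173, 236 and 214, against 336, 252 and 303 in Ctrl), without overlap and without passing (-0.52 ± 0.24, limma adjusted p = 0.372).

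**Figure D4:**
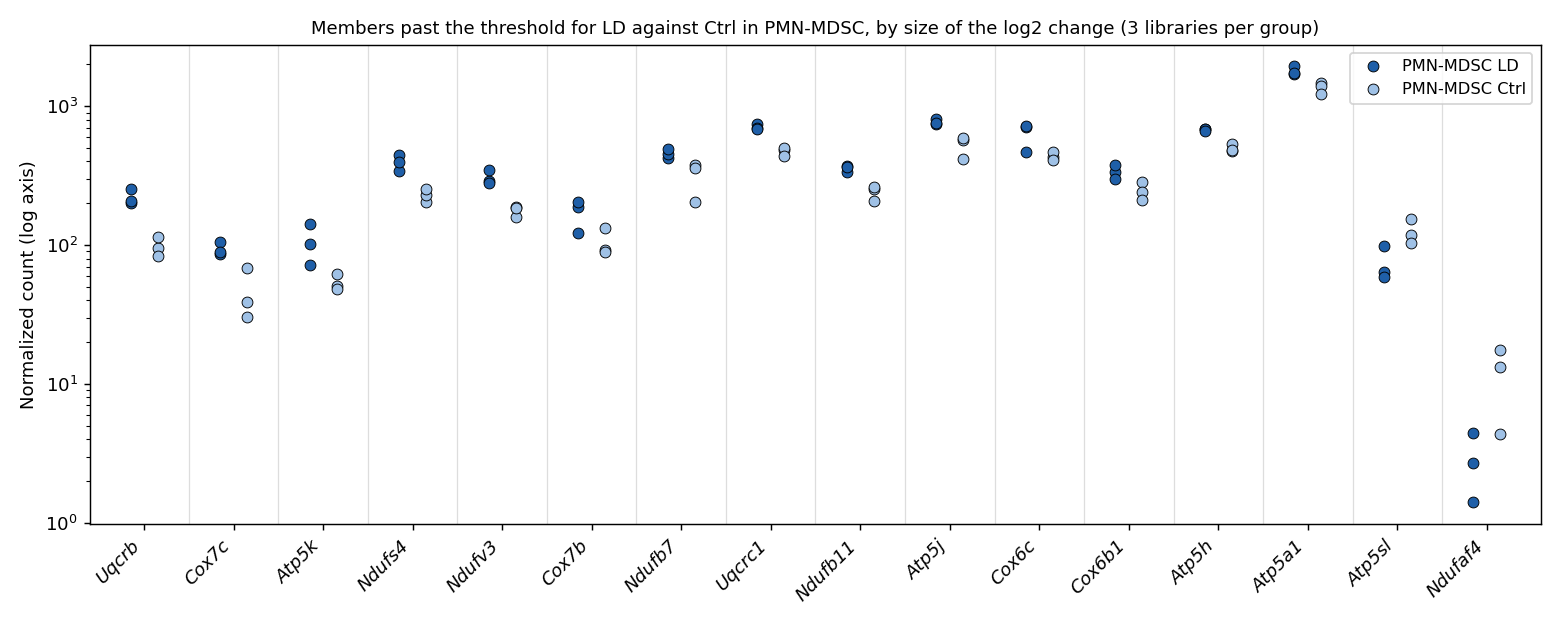
Normalized counts (log axis) of the 16 members that passed for LD against Ctrl in PMN-MDSC, in each PMN-MDSC LD library (dark, left) and each PMN-MDSC Ctrl library (light, right), ordered by log2 change. The LD points lie above all Ctrl points in 13 of the 14 genes that rose, Cox7b being the exception.

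The rise depended on which control libraries entered. Without PMN-MDSC Ctrl replicate 3, the shallowest library, 7 members rose, 0 fell and the median change was 0.14. Without PMN-MDSC Ctrl replicate 1, 21 rose, and leaving out M-MDSC Ctrl replicate 3, PMN-MDSC Ctrl replicate 2, PMN-MDSC LD replicate 2 or PMN-MDSC LD replicate 3 left 9, 9, 10 and 10. Uqcrb, Uqcrc1, Ndufs4, Ndufv3 and Atp5j, 5 in all, passed in each of the 24 alternative settings, with the largest adjusted p of any setting at 0.0373 for Atp5j. Cox6b1 passed in 7 of 24, Ndufb7 in 9 and Ndufaf4 in 8 of 23. Neutrophil markers moved with these changes, with summed levels of 649515 to 743563 in PMN-MDSC LD against 413158 to 439534 in PMN-MDSC Ctrl, and their part in the result was not tested. Transcript length moved with the change: the median change in PMN-MDSC was 0.37 for the 51 members under 1 kb and 0.14 for the 1025 other genes under 1 kb, against -0.11 for the 2819 other genes over 4 kb. The part of length or RNA quality was not tested.

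**Figure D5:**
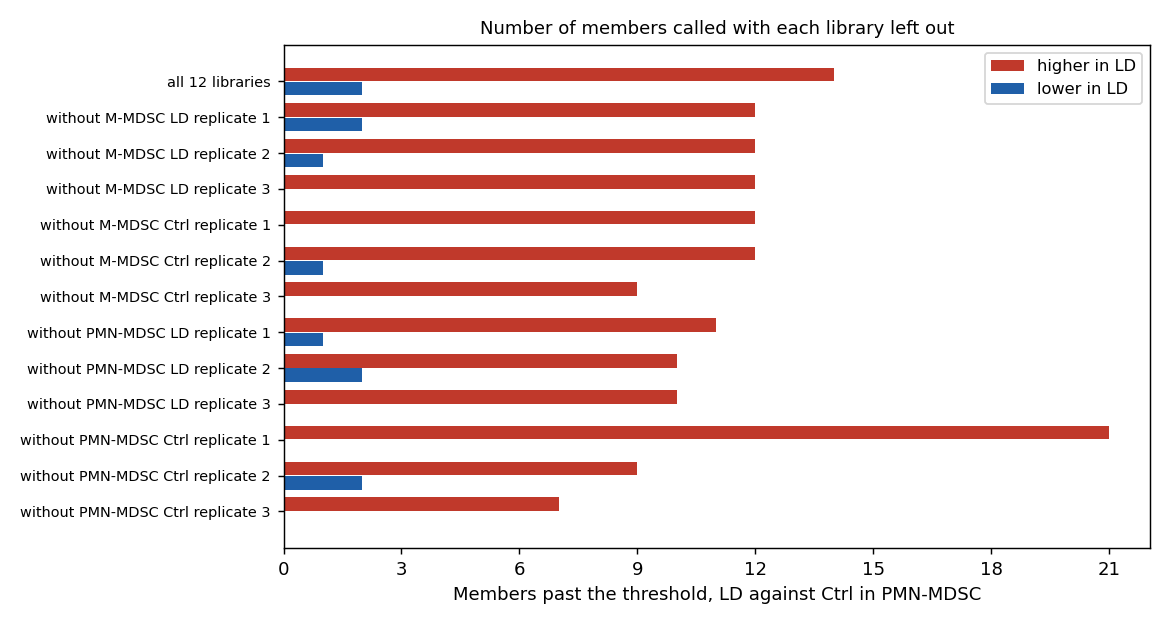
Number of members past the threshold for LD against Ctrl in PMN-MDSC with all 12 libraries and with each library left out in turn, higher in LD (red) and lower in LD (blue). The count of higher members runs between 7 and 21, and both ends come from leaving out a PMN-MDSC Ctrl library.

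Promoters are shown for 4 members because 3 of them rose in PMN-MDSC with LD and because the pathway's known regulators, NRF1, GABP (an ETS factor), YY1 and ERR alpha, bind short motifs near the start of many of its genes. The windows run from 250 bases before to 50 bases after the start, 5′ to 3′ on the gene's own strand, from RefSeq on GRCm38.p6, with motif letters in capitals. Uqcrc1 (chr9:108936398-108936697, + strand), Atp5k (chr5:108434350-108434649, − strand) and Cox7c (chr13:86046746-86047045, − strand) rose in PMN-MDSC. Cox8a (chr19:7217567-7217866, − strand) was among those higher in PMN-MDSC than in M-MDSC, a direction that turned with total-count scaling.
Uqcrc1: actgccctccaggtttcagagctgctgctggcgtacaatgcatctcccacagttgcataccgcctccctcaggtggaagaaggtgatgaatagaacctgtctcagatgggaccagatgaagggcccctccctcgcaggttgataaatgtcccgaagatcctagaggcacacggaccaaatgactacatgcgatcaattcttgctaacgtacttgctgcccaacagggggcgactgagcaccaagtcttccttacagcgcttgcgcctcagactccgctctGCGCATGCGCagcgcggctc
Atp5k: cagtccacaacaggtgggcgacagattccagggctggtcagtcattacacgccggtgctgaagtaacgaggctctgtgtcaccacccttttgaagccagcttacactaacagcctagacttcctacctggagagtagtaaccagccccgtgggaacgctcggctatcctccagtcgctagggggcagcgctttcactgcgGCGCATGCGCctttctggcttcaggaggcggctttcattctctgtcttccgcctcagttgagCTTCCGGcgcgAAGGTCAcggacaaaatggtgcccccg
Cox7c: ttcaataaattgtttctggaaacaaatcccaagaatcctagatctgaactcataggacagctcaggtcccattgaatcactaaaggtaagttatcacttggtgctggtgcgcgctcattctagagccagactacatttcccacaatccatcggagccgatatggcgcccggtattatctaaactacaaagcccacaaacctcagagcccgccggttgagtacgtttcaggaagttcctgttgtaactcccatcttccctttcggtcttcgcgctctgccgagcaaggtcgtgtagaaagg
Cox8a: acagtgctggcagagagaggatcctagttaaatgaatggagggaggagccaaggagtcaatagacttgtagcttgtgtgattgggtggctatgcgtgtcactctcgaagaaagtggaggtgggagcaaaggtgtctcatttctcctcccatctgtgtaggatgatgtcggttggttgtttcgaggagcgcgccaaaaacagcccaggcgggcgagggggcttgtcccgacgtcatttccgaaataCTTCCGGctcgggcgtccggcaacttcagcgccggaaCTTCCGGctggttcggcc

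The searched letters were GCGCATGC for NRF1, CCGGAAG for ETS, AAGATGGC for YY1 and AAGGTCA for ERR, on both strands, and in Uqcrc1 and Atp5k the NRF1 letters match both strands at overlapping places. Atp5k also holds the ETS and ERR letters. Cox8a holds the ETS letters at 2 places and Cox7c holds none of the motifs. Members had 84 promoters of 78 genes in the RefSeq table. The NRF1 letters were in 14.3% of them, beside 5.39% of the promoters of tested genes and 2.71% of all 32851 promoters, and the YY1 letters in 14.3%, beside 4.87% and 2.75%. The ERR letters were in 9.52%, beside 3.14% and 4.72%, and the ETS letters in 22.6%, beside 18.9% and 8.86%. Among the 12 promoters of 11 members that rose in PMN-MDSC LD, 2 held NRF1, 5 ETS, 2 YY1 and 1 ERR letters.

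In M-MDSC, 0 of 84 members passed for LD against Ctrl (limma, adjusted p under 0.05), where 2.54% of all tested genes rose and 0.468% fell. At an unadjusted p under 0.05 limma gave 2 members, edgeR 2 and DESeq2 2, and both count tests also passed 0 after adjustment. The median change was -0.02 over members and -0.04 over all genes, with a range of -0.97 to 0.45. Groups did not overlap with LD higher in 4 members and with LD lower in 7, where 10.6% and 12.4% of all tested genes did so. Uqcrb had 474, 464 and 374 normalized counts in M-MDSC LD against 438, 446 and 421 in M-MDSC Ctrl, and the groups overlapped (0.00 ± 0.16). Ndufs4, Ndufv3, Uqcrc1 and Atp5j, which rose in PMN-MDSC, gave -0.04 ± 0.14, 0.00 ± 0.17, 0.01 ± 0.11 and 0.06 ± 0.13 in M-MDSC. Markers differed between the same groups, with neutrophil sums of 13138 to 54398 in M-MDSC LD against 6887 to 7911 in M-MDSC Ctrl, macrophage sums of 363 to 444 against 133 to 188, and monocyte sums of 65588 to 85649 against 94705 to 113436, and their part in the result was not tested. In the same libraries 17 of 25 genes of cell division rose, with a median change of 2.35 over the 25 (range 0.71 to 3.3). Those changes are far larger than the member median of 0.28 in PMN-MDSC. They cannot show whether changes of that smaller size would pass at this number of libraries.

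Whether lymphodepletion acted differently in the populations was tested as the change in M-MDSC minus the change in PMN-MDSC. Of 84 members 0 were higher and 1 was lower, where 1.18% and 1.07% of all tested genes were. The member was Uqcrb, with a difference of -1.17 ± 0.23 (limma adjusted p = 0.0183). The median difference was -0.31 over members and 0.04 over all genes. Ndufs4 came next with -0.82 ± 0.20 (limma adjusted p = 0.0507), and Ndufv3, Uqcrc1 and Atp5j gave -0.78 ± 0.23, -0.57 ± 0.16 and -0.51 ± 0.18, none of which passed. The Uqcrb difference did not pass without M-MDSC LD replicate 3, M-MDSC Ctrl replicate 1 or M-MDSC Ctrl replicate 2; in each case 0 members passed by limma, with 13, 14 and 11 at an unadjusted p under 0.05.

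Levels were also compared per transcript length. In PMN-MDSC Cox8a led, with a mean of 1469 normalized counts per kb in LD and 1322 in Ctrl, followed by Cox6c (1262 and 865) and Cox4i1 (1103 and 843). In M-MDSC the leading members were Cox6c (1759 in LD, 1715 in Ctrl), Atp5h (1640 and 1755) and Atp5a1 (1424 and 1501). The median over broadly expressed subunits was 264 per kb in M-MDSC LD and 312 in M-MDSC Ctrl for complex I, against 214 in PMN-MDSC LD and 135 in PMN-MDSC Ctrl. For complex IV it was 536 and 536, against 574 and 404. Such medians can fall on a different gene in each group. Gene by gene, the 10 complex IV subunits had a median difference of 0.18 between populations in LD, with 7 higher in M-MDSC. The 43 tested complex I members had a median LD change of 0 in M-MDSC. Ndufs5, a complex I subunit, was listed at 0 in every library but PMN-MDSC Ctrl replicate 3, so its level could not be read. It shares 41.2% of its 50-mers with another gene, but Atp5g2, with 87.4% shared, had 897 reads in all. The reason for the low count of Ndufs5 was not tested.

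Tissue-restricted isoforms had few reads. Cox4i1, the common form of subunit 4, gave 100% of Cox4i reads in 3 groups and 99.7 ± 0.489% in PMN-MDSC Ctrl, where the hypoxia-linked Cox4i2 had 7 reads, all in 1 library. The heart and muscle forms Cox6a2 and Cox7a1 gave at most 1 and 6 reads per group, against at least 795 for Cox6a1 and 375 for Cox7a2. Cox8b and Cox8c had 0 reads, so in each library they lie under 3 reads, or 1.68 to 4.79 normalized counts. Ndufa4l2 had 1 read in all, while Ndufa4 was higher in M-MDSC by 1.07 ± 0.24 in LD and 1.38 ± 0.24 in Ctrl, without overlap. Cox6b2, known from testis, gave 3.19 ± 2.54% of Cox6b reads in M-MDSC LD, 5.20 ± 0.844% in M-MDSC Ctrl, 1.52 ± 1.32% in PMN-MDSC LD and 0.603 ± 0.546% in PMN-MDSC Ctrl. Cox7a2l, a factor that joins complexes III and IV, was higher in M-MDSC by 0.53 ± 0.15 in Ctrl without overlap and did not pass in LD (0.22 ± 0.15), and Cox7a2 gave 0.06 ± 0.19 under both treatments.

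Neighbouring pathways were read from lists chosen with earlier results known. Beside their counts, 38.8% of all tested genes were higher and 36.8% lower in M-MDSC in Ctrl, and 38.8% and 36.1% in LD. With LD, 7.17% of all tested genes rose and 8.51% fell in PMN-MDSC, and 2.54% and 0.468% in M-MDSC. Of 18 tested genes of the citric acid cycle, 13 were higher and 1 lower in M-MDSC in LD, and 17 and 1 in Ctrl. Idh3b, a subunit of the NAD-linked isocitrate dehydrogenase, had the smallest adjusted p of the list in Ctrl, with a difference of 1.46 ± 0.14. None of the 18 passed for LD against Ctrl in either population by limma, with 0 and 3 at an unadjusted p under 0.05 in M-MDSC and PMN-MDSC. Of 76 mitochondrial ribosome genes, 58 were higher and 3 lower in M-MDSC in Ctrl. Mrpl33 had the smallest adjusted p and was lower in M-MDSC (-1.66 ± 0.12). In PMN-MDSC 3 of the 76 rose and 3 fell with LD (3.95% each), both below the shares of all tested genes. Cycs, cytochrome c itself, averaged 367 ± 42.1 in M-MDSC LD, 339 ± 25.8 in M-MDSC Ctrl, 103 ± 3.16 in PMN-MDSC LD and 75.1 ± 4.32 in PMN-MDSC Ctrl (SD, n = 3 each). It was 2.16 ± 0.16 higher in M-MDSC in Ctrl, and its LD change in PMN-MDSC was 0.45 ± 0.16 (limma adjusted p = 0.0735). Of 16 tested electron carriers and coenzyme Q genes, 11 were higher and 1 lower in M-MDSC in Ctrl.

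Of 29 tested assembly factors outside the naming rule, 14 were higher (48.3%) and 1 was lower (3.45%) in M-MDSC in Ctrl. Of all tested genes 38.8% were higher and 36.8% lower there. Lrpprc, which keeps mitochondrial mRNA stable, had the smallest adjusted p, with 730 ± 52.6 in M-MDSC Ctrl against 66.5 ± 28.5 in PMN-MDSC Ctrl (SD, n = 3 each). Regulators went both ways, 8 higher (53.3%) and 6 lower (40%) in M-MDSC of 15 in Ctrl. Tfam, which packages mitochondrial DNA, was 2.22 ± 0.29 higher in M-MDSC in Ctrl and Ppargc1b, a coactivator of these genes, 2.55 ± 0.55 higher. Nrf1 was lower in M-MDSC (523 ± 56.8 against 1072 ± 105 in PMN-MDSC Ctrl, -1.04 ± 0.11), as were Esrra (-0.74 ± 0.17) and Gabpb1 (-2.01 ± 0.16), while Gabpa gave 0.03 ± 0.10. Under total-count scaling Nrf1 (-0.41 ± 0.12) and Gabpb1 (-1.38 ± 0.17) kept their direction and passed. Esrra did not pass there (-0.11 ± 0.17) and Gabpa was higher in M-MDSC (0.65 ± 0.11). Of the 15, 9 were higher and 3 lower, where 6162 of all 11195 tested genes were higher and 2547 lower. Ppargc1a averaged 0 in both LD groups, 1.01 ± 0.962 in M-MDSC Ctrl and 1.89 ± 2.06 in PMN-MDSC Ctrl. None of the 15 passed for LD against Ctrl in either population by limma, with 1 in each at an unadjusted p under 0.05.

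Glycolysis is the other main source of ATP. Of 18 tested glycolysis genes, 1 was higher and 12 were lower in M-MDSC in Ctrl, and 4 and 9 under total-count scaling. Of all tested genes 38.8% were higher and 36.8% lower in Ctrl, and under total-count scaling 6162 and 2547 of 11195. The lactate exporter Slc16a3 had the smallest adjusted p, with 704 ± 33.4 in M-MDSC Ctrl against 4982 ± 122 in PMN-MDSC Ctrl (SD, n = 3 each). With LD, 8 of the 18 glycolysis genes rose (44.4%) and 1 fell in PMN-MDSC, and 3 rose in M-MDSC (16.7%). Of all tested genes 7.17% rose and 8.51% fell in PMN-MDSC, and 2.54% rose in M-MDSC. Of 12 genes of uncoupling and nucleotide exchange, 7 were higher and 3 lower in M-MDSC in Ctrl, and 9 and 2 under total-count scaling. Mcu, the pore of the calcium uniporter, had the smallest adjusted p between populations in Ctrl and was among the lower ones (-1.80 ± 0.14). With LD, 4 of the 12 rose in PMN-MDSC and 0 passed in M-MDSC by limma (1 at an unadjusted p under 0.05). Ucp2, an uncoupling carrier common in leukocytes, was at 10570 ± 892 in M-MDSC LD, 12213 ± 1410 in M-MDSC Ctrl, 14624 ± 1370 in PMN-MDSC LD and 12160 ± 810 in PMN-MDSC Ctrl. Cell division genes, 25 in all, had 0 higher and 19 lower in M-MDSC in Ctrl, and 2 and 4 under total-count scaling, Kif23 having the smallest adjusted p (-3.85 ± 0.22), and with LD 17 rose in M-MDSC and 0 passed in PMN-MDSC by limma (1 at an unadjusted p under 0.05). With both LD libraries numbered 1 left out, 12 members rose and 0 fell in PMN-MDSC and 0 passed in M-MDSC.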

How the data were processed

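The authors deposited 1 table of normalized counts (unit: signal) for 23479 genes in 12 libraries. Per the labels' protocols, libraries were made from total RNA after ribosomal RNA depletion. Strandedness is not given in the sources used here. Per the submitters' processing notes reads were processed on mm10 with tools that include HTSeq 0.6.1, DESeq2 and STAR 2.5.3a. Every value was a whole multiple of 1 read of its library (100% within 0.001 reads), so reads were recovered.

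Here log2(normalized count + 1) was fitted with limma 3.58.1 (R 4.3.3), a scale that understates changes of low genes, over the 11122 genes with a mean of at least 10, with 4 group means, a trend and 8 residual degrees of freedom. Two-sided p-values were adjusted by Benjamini-Hochberg across every gene tested, with a threshold of 0.05. Recovered reads were also tested with edgeR 4.0.16 and DESeq2 1.42.0. The fit was tested on simulated data. Python 3.11.15 with pandas 2.3.3 and matplotlib 3.10.9 drew the figures.

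Members, lists and tests were chosen with earlier results of these data known. Named members are the 2 smallest adjusted p per complex, comparison and direction, all members called for LD, and the isoform groups. From each other list the gene with the smallest adjusted p between populations in Ctrl was named, with 8 genes in any case. Ndufs5 was named after its values were seen. Transcript lengths and shared 50-mers come from GENCODE M21 and coordinates and promoters from RefSeq. All 94 members matched for length and coordinates and 78 for promoters. Reads carry no molecular identifiers, so limits cover counting error only. Alternatives were other pseudocounts, minimum levels and scalings, both count tests, replicate blocks, the compared groups alone and each library left out.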

Additional observations from a re-analysis of the deposited data

Results flagged for a closer look

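Uqcrb was flagged because its log2 change with lymphodepletion in M-MDSC minus that in PMN-MDSC was -1.17. In M-MDSC its mean was 438 ± 54.9 in LD and 435 ± 12.9 in Ctrl, and in PMN-MDSC it was 221 ± 28.3 in LD and 97.7 ± 15.7 in Ctrl (SD, n = 3 each). It was the only one of the 84 tested members whose difference passed the limma threshold. That is 1.19% of members, near the 1.07% of all tested genes that were lower. Without M-MDSC LD replicate 3, M-MDSC Ctrl replicate 1 or M-MDSC Ctrl replicate 2 the Uqcrb difference did not pass. Uqcrb shares 43.4% of its transcript 50-mers with 5 other genes, so its count is uncertain.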

How the results depend on the processing

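The count for LD against Ctrl in M-MDSC was 0 in every alternative run. For LD against Ctrl in PMN-MDSC, 16 members passed, against 10 with no minimum level and 8 with only the compared groups, and between 7 and 21 with each library left out. For the difference of the LD changes 1 passed, against 2 with a pseudocount of 8, a minimum mean of 50 or TMM scaling, 6 with DESeq2, 3 with the block by presumed animal, and between 0 and 2 with each library left out. Leaving out both LD libraries numbered 1 gave 3. For M-MDSC against PMN-MDSC in LD, 51 passed, with 45 higher and 6 lower. Total-count scaling gave 78, all higher in M-MDSC, where 6619 of all 11195 tested genes were higher and 2310 lower. Upper-quartile scaling gave 40 higher and 12 lower, where 3842 of all 11216 tested genes were higher and 4485 lower. In Ctrl, 59 were higher and 4 lower, against 79 and 0 with total-count and 52 and 7 with upper-quartile scaling. Over all tested genes these scalings gave 6162 higher and 2547 lower, and 3825 higher and 4554 lower, in Ctrl. Total-count scaling and leaving out both LD libraries numbered 1 were chosen after seeing the data. The same scaling also reversed, in Ctrl, Atp5l (0.17), Cox8a (0.16) and Ndufb9 (0.02) and, in LD, Atp5f1 (0.48), Cox8a (0.13), Ndufb7 (0.27), Ndufb9 (0.29) and Sdha (0.44). Relative to the all-gene median, members were 0.87 to 0.92 higher in M-MDSC in Ctrl under the scalings and count tests, 0.77 with no minimum level and 0.75 without PMN-MDSC Ctrl replicate 3. The causes were not tested.

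The replicate block gave 0 higher and 0 lower in M-MDSC, 13 and 0 in PMN-MDSC, 0 and 1 for the difference, 60 and 4 between populations in Ctrl and 45 and 6 in LD. Between the populations in LD, deviations of same-numbered libraries correlated at 0.21, 0.12 and 0.07. Each was above the highest of the differently numbered pairs (-0.07, 0.01 and 0.05). In Ctrl the same-numbered values were -0.04, 0.05 and 0.13, against 0.05, 0.10 and -0.05. The labels do not say whether these libraries share a mouse, and the main fit took them as separate. The block by presumed animal gave 61 higher and 5 lower between populations in Ctrl and 44 and 5 in LD. Total reads of 8906045 to 16242926 leave members under about 3 reads unread, and 1 read is worth 1.60 normalized counts in PMN-MDSC Ctrl replicate 3.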
